A study of Arabidopsis thaliana with 6 samples.

Results

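The genes described here are the heat shock proteins (HSPs) and heat stress transcription factors (HSFs) of *Arabidopsis thaliana*. Members were the protein-coding genes whose deposited description holds the words heat shock or heat stress transcription factor, which gave 86 of the 32998 genes in the table. They comprise 20 small HSPs, 13 members of the HSP70 family, 4 of the HSP90 family, 17 HSFs, 26 DnaJ (HSP40) proteins and 6 others. The rule reads descriptions only. Well-known relatives whose descriptions lack these words, such as *HSP101* and *HSP70-1*, are not members and are given below in other lists.

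HSPs are molecular chaperones. HSP70 and HSP90 use ATP to fold client proteins, DnaJ proteins deliver clients to HSP70, and small HSPs hold unfolding proteins without ATP until the other chaperones can refold them. HSFs of class A activate these genes by binding repeated heat shock elements as trimers, with the A1 factors acting early and HSFA2 prolonging the response, while class B factors mostly repress. In seedlings grown without heat, cytosolic HSP90 and HSP70 are abundant as housekeeping chaperones and most small HSPs are scarcely transcribed.

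Transcript levels were compared between 3 WT (Columbia background) and 3 *mdf-1* libraries, the latter from a T-DNA line with the insertion in an intron of *MDF*. *MDF* encodes the plant counterpart of SART1, a protein of the U4/U6.U5 tri-snRNP of the spliceosome. Each library came from its own biological replicate of complete 12-day-old seedlings, grown on sucrose-containing agar medium under a long-day cycle, and no heat treatment is named for either group. The comparison shows which heat shock genes differ when MDF function is impaired, in plants that were not heated.

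Between 44738352 and 50088386 reads per library were assigned to genes. Levels are given as FPKM or as normalized counts, which are scaled to a common library size. FPKM are the authors' counts scaled for gene length, library depth and a further factor per library. That factor was higher in every *mdf-1* library than in any WT library. Across all 22397 genes tested with edgeR, 67.4% had a Benjamini-Hochberg adjusted p below 0.05, the threshold for calling a gene higher or lower, with 33.5% higher and 33.9% lower in *mdf-1*, so a called gene is the usual case here and counts of members are read against these shares. Scaling by total counts alone moved the median of all genes to -0.14 on the log2 scale and the split to 24.8% higher and 41.7% lower. *MDF* itself was higher in *mdf-1*, with 3780 ± 99.9 against 3034 ± 76.6 normalized counts (SD, n = 3 each), but reads were counted along all its exons together, so this level is no check of the insertion. Root marker genes were lower in *mdf-1* for 10 of 11, with a summed level of 19.9 ± 2.24 FPKM, at most 22.2, against 77.4 ± 9.21 FPKM, at least 71.8, in WT (SD, n = 3 each), and none was at 0. Green tissue markers summed to 19159 to 23900 FPKM in *mdf-1* and 18653 to 20056 FPKM in WT, and 2 of 6 were higher and 1 lower. All 7 seed maturation markers were too low to test, with summed levels of 0.42 to 3.03 FPKM. In RNA from complete seedlings, fewer cells of a type and less RNA per cell cannot be told apart, and the part of the smaller root signal in the results below was not tested.

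The heat shock element (HSE), the HSF binding site, is built of GAA units in alternating orientation. The 3-unit element was searched on both strands as GAA, TTC and GAA with NN between the units, or its reverse complement TTC, GAA and TTC spaced in the same way. The 2-unit elements GAANNTTC and TTCNNGAA lie within it. In the 300 bases before the annotated gene start, 6 of 86 members (6.98%) held a 3-unit element, against 133 of 27412 protein-coding genes (0.485%). Several annotated starts lie upstream of the element, so the 500 bases before the start codon were also searched, a window chosen after the first search had been seen. There, 14 of 86 members (16.3%) held a 3-unit element, against 329 of 27412 protein-coding genes (1.2%). A match is a run of letters and not a shown binding site.

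The sites below stand within 500 bases before the start codon of members on which the results turn. They were read from the TAIR10.1 genome of RefSeq on the strand of the gene, with the 13 bases of the element in capitals. Those of *HSP18.1* and *HSP70-3* lie inside the annotated gene, after its start, and the others before it. The sites are shown because such elements stood at genes that rose, genes that were not called and genes that fell in *mdf-1*. For *HSP90-1* the annotated gene start is also its start codon.
HSP18.1 (chr5:24062388-24062416, plus strand, higher in *mdf-1*): caacaaacGAAACTTCCTGAAatgccaag
HSFA2 (chr2:11135528-11135556, plus strand, higher): ttagtaacGAAGTTTCTGGAAcattgtct
HSP90-1 (chr5:21352254-21352282, plus strand, higher): aacgaaaaGAACTTTCTGGAAttcgtttg
HSP70-3, distal site (chr3:2905894-2905922, minus strand, higher): atcgaaccGAACATTCTCGAAccttttta
HSP70-3, proximal site (chr3:2905765-2905793, minus strand, higher): gagccatcGAACCTTCTCGAAactcgagt
HSP17.6C (chr1:19980238-19980266, plus strand, no call): caacaccaGAAACTTCTTGAAagcacctg
HSFA7A, distal site (chr3:19264941-19264969, plus strand, lower): ttacgaagTTCCAGAAGTTTCgactattc
HSFA7A, proximal site (chr3:19264991-19265019, plus strand, lower): aaaaccgtTTCCAGAAGTTTCtaatttct

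Small HSPs had the highest median log2 fold change of the 5 families, and most of them rose in *mdf-1*. Of 19 tested, 13 were higher (68.4%, against 33.5% of all genes), 2 were lower and 4 were not called, and 8 were higher with a log2 fold change above 1, a size that 7.91% of all tested genes reached. The median log2 fold change of the 19 was 0.91, against 0.01 over all genes. In 15 of them every *mdf-1* library lay above every WT library, and in 2 every one lay below, against 36.3% and 37% of all genes. The 20 genes summed to 202, 190 and 175 FPKM in the *mdf-1* replicates 1 to 3 and to 99.9, 105 and 99.9 FPKM in WT. The 2 groups of libraries were well apart, and *mdf-1* replicate 1 was the highest.

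**Figure D1:**
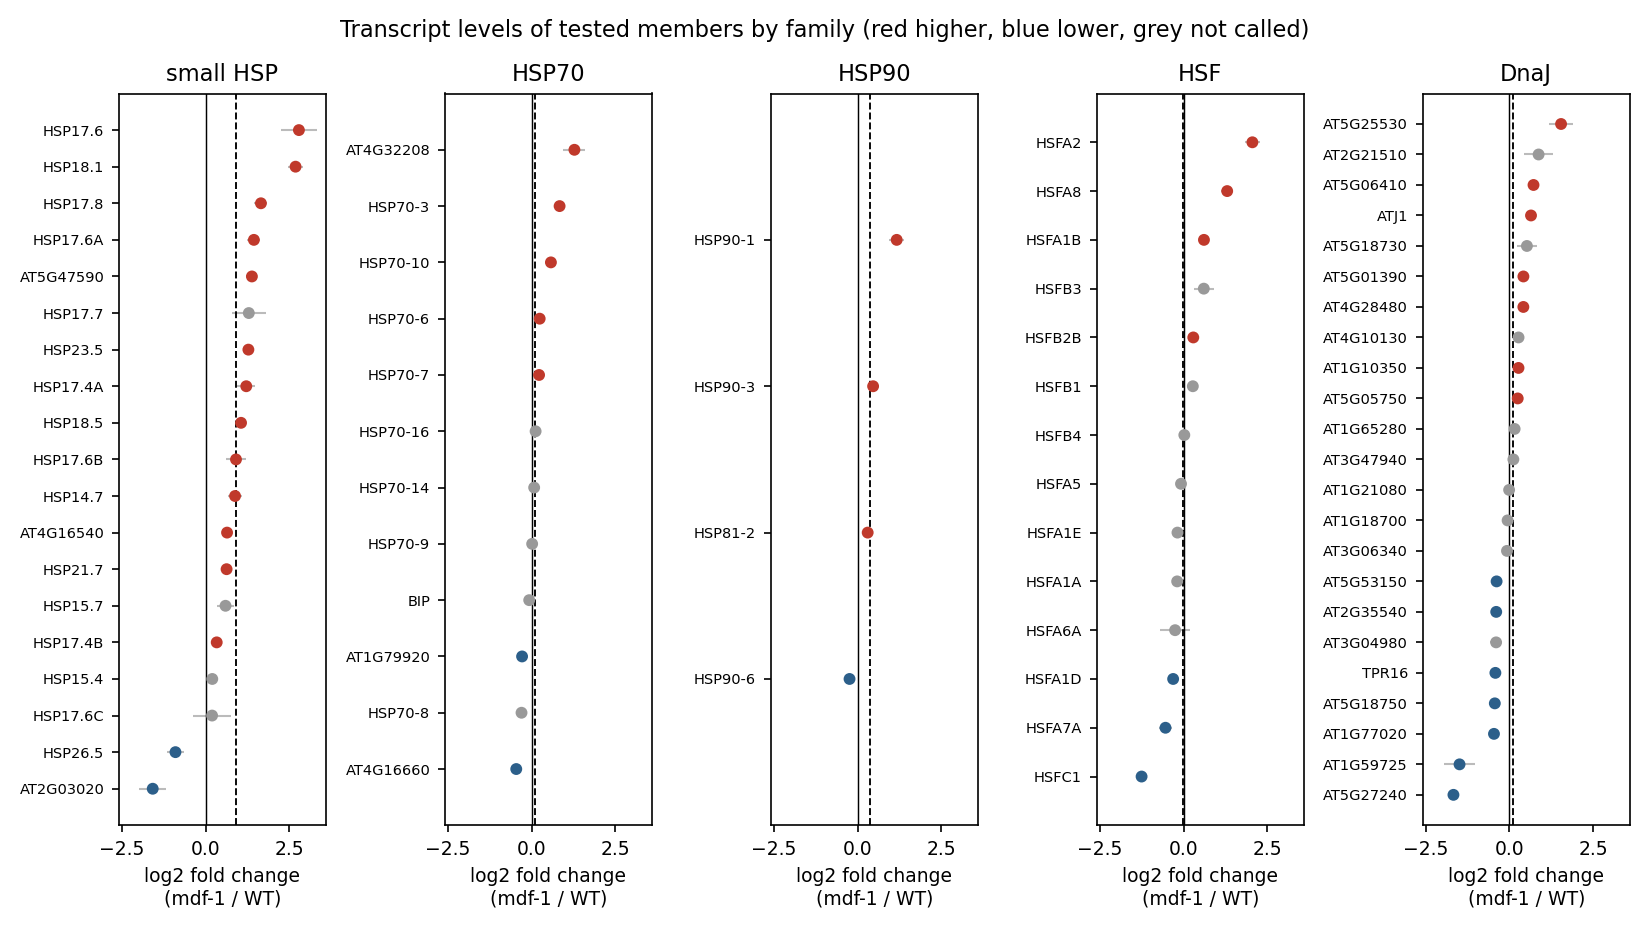
Log2 fold changes (*mdf-1* over WT, x axis) of the tested members of the 5 families, with standard errors as horizontal bars, in a panel for each family. Red points were higher and blue points lower at an adjusted p below 0.05, grey points were not called, and the dashed line is the median of the family, which is 0.91 for small HSPs and lies between -0.03 and 0.38 in the other panels.

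Cytosolic class I small HSPs, which are strongly heat-inducible, included several of the larger rises. The largest was that of *HSP17.6*, of class II, given below. *HSP18.1* (AT5G59720, chromosome 5 from 24062323 to 24063300 in TAIR10.1, plus strand, no intron) stood at 19.7, 19.9 and 12.9 FPKM in *mdf-1* and at 2.28, 3.39 and 2.50 FPKM in WT. Even the lowest *mdf-1* library was far above the highest WT library. The fold change was 6.45 (log2 2.69 ± 0.225 SE, adjusted p = 4.98e-05, edgeR). *HSP17.8* stood at 8.69, 5.74 and 5.93 FPKM against 2.44, 1.99 and 2.06 FPKM, again with no overlap. It was 3.15-fold higher (log2 1.65 ± 0.193 SE, adjusted p = 1.32e-04). *HSP17.6A* and *HSP17.4A* were 2.72-fold and 2.32-fold higher (adjusted p = 2.79e-04 and 0.004). *HSP17.6B* was 1.88-fold higher (adjusted p = 0.0316), and here *mdf-1* replicate 3 lay close to the highest WT library, which stood at 9.97 FPKM. Its call was lost without *mdf-1* replicate 1 or 2 or any WT replicate, and with no filter on low counts, with adjusted p up to 0.0979, and its adjusted p without *mdf-1* replicate 3 was 2.26e-05. *HSP17.6C* had 46, 11 and 17 counts in *mdf-1* and 33, 12 and 32 in WT, which overlapped, and its log2 fold change of 0.19 ± 0.581 SE was not called (adjusted p = 0.787) and turned to -0.63 without *mdf-1* replicate 1.

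Class II small HSPs, also cytosolic, are represented by the neighbours *HSP17.6* and *HSP17.7*, which lie 845 bases apart on chromosome 5. *HSP17.6* (AT5G12020, chromosome 5 from 3882231 to 3883111, minus strand, no intron) had 95, 60 and 38 counts in *mdf-1* and 11, 3 and 19 in WT, or 2.52, 1.61 and 0.98 FPKM against 0.25, 0.07 and 0.41 FPKM. The groups did not overlap, though the lowest WT library was at the floor of 3 counts. The fold change was 6.92 (log2 2.79 ± 0.55 SE, adjusted p = 0.00262), with a log2 fold change of 2.36 without WT replicate 2 and 3.39 without WT replicate 3. *HSP17.7* had 53, 50 and 55 counts in *mdf-1* and 25, 6 and 46 in WT. All *mdf-1* libraries were above all WT libraries, but the WT libraries were spread widely, and the log2 fold change of 1.29 ± 0.514 SE was not called (adjusted p = 0.0561 with edgeR, and called with DESeq2, with the replicate block and without WT replicate 2 or 3, where adjusted p fell as low as 0.0127). That value was 0.84 without WT replicate 2 and 1.97 without WT replicate 3.

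*HSP18.5* (AT2G19310, chromosome 2 from 8369568 to 8370675, minus strand, no intron), a class IV protein, had the highest mean FPKM of the small HSPs over all 6 libraries, though in WT it lay below *HSP15.4*, and stood at 45.3, 38.8 and 41.2 FPKM in *mdf-1* and 18.9, 19.98 and 21.5 FPKM in WT. Libraries of a genotype were close together and the groups far apart, with a fold change of 2.08 (log2 1.06 ± 0.0744 SE, adjusted p = 1.15e-05). *HSP15.4*, of class V, stood at 28.6 to 35.9 FPKM against 24.5 to 31.7 FPKM, overlapped between genotypes and was not called (log2 fold change 0.20, adjusted p = 0.191), except without WT replicate 2 and with the replicate block (adjusted p down to 0.0179). *HSP21.7*, of class VI, was 1.54-fold higher (adjusted p = 1.1e-04), and *HSP17.4B*, of class III, was 1.26-fold higher (adjusted p = 0.0278). The call of *HSP17.4B* was lost without *mdf-1* replicate 1, WT replicate 1 or WT replicate 2 and with total counts or upper-quartile scaling (adjusted p up to 0.186). Among genes described as HSP20 or alpha-crystallin family, *AT5G47590* rose 2.61-fold and its neighbour *HSP14.7*, 542 bases away, rose 1.84-fold (adjusted p = 2.39e-04 and 0.00693), and *AT4G16540* was 1.56-fold higher (adjusted p = 0.00652). The peroxisomal *HSP15.7* had 2.27, 3.48 and 2.42 FPKM against 2.12, 1.37 and 1.94 FPKM and was not called (adjusted p = 0.0577), except without *mdf-1* replicate 1 or 3 (adjusted p down to 0.0421).

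The mitochondrial small HSPs moved apart. *HSP23.5* stood at 11.4, 12.7 and 15.1 FPKM in *mdf-1* and 4.72, 5.33 and 6.16 FPKM in WT, with no overlap, and was 2.43-fold higher (log2 1.28 ± 0.136 SE, adjusted p = 8.04e-05). *HSP26.5* stood at 0.74, 1.08 and 1.09 FPKM in *mdf-1* and at 2.02, 1.31 and 2.14 FPKM in WT. All *mdf-1* libraries were below all WT libraries, with WT replicate 2 the nearest, and the level was 1.87-fold lower (log2 -0.90 ± 0.26 SE, adjusted p = 0.0142). This call was lost without WT replicate 1 or WT replicate 3 (adjusted p = 0.0515 and 0.0573), and the number of small HSPs called lower was then 1. The other lower gene, *AT2G03020* of the HSP20 family, had only 4, 6 and 12 counts in *mdf-1* and 29, 21 and 29 in WT (log2 -1.59, adjusted p = 0.00871). *HSP22.0*, the small HSP of the endoplasmic reticulum (ER), had 3 to 15 counts in *mdf-1* and 2 to 7 in WT and did not pass the filter on low counts.

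Genes of small HSPs are short, and 11 of the 20 have no annotated intron. Of the 10 of these that were tested, 7 were higher and none lower, with a median log2 fold change of 1.25. Of the 9 with an intron, all tested, 6 were higher and 2 lower, with a median of 0.63. Over all genes, 25.8% of those tested without an intron and 35% of those with an intron were higher, and 36.3% and 33.5% were lower. Across all 86 members, 8 of 13 tested genes without an intron and 26 of 62 with an intron were higher, and 1 and 14 were lower. Small HSPs make up 10 of these 13 and 7 of the 8, so the counts show no contrast beyond that family.

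**Figure D2:**
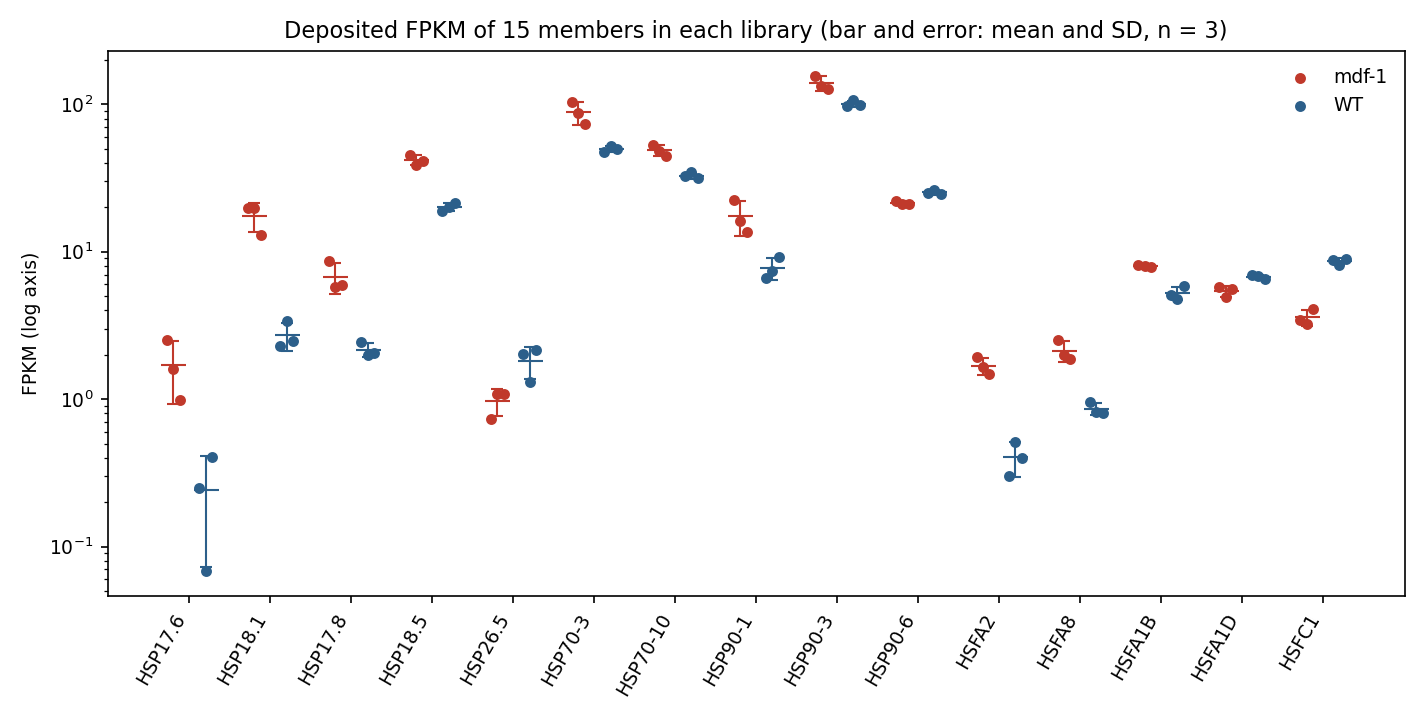
FPKM (log axis) of 15 members in each of the 3 *mdf-1* (red) and 3 WT (blue) libraries, with horizontal marks and error bars for the mean and SD. Only called genes were drawn, and for none of them do libraries of the genotypes overlap, which this choice favours. Of all genes, 36.3% lay above and 37% below WT without overlap. *HSP17.6*, *HSP18.1* and *HSFA2* show the widest gaps, while *HSP26.5*, *HSP90-6*, *HSFA1D* and *HSFC1* lie lower in *mdf-1*.

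The HSP70 family was mixed. Of 12 tested, 5 were higher (41.7%, against 33.5% of all genes), 2 lower (16.7%, against 33.9%) and 5 not called. The median log2 fold change of 0.10 became -0.05 with scaling by total counts, where 3 were higher. *HSP70-3*, a cytosolic HSP70 (AT3G09440, chromosome 3 from 2902355 to 2905947, minus strand, 4 introns), stood at 104, 86.7 and 73.6 FPKM in *mdf-1* and 47.2, 52.1 and 49.5 FPKM in WT. All *mdf-1* libraries were above all WT libraries, with replicate 1 the highest. It was 1.79-fold higher (log2 0.84 ± 0.122 SE, adjusted p = 5.85e-04). The mitochondrial *HSP70-10* stood at 52.8, 48.6 and 44.9 FPKM against 32.4, 34.5 and 31.6 FPKM and was 1.49-fold higher (log2 0.58 ± 0.0718 SE, adjusted p = 1.84e-04). The groups did not overlap, whereas the other mitochondrial gene, *HSP70-9*, overlapped at 62.4 to 67.0 FPKM and 60.9 to 67.2 FPKM (log2 fold change 0.02, adjusted p = 0.83). *AT4G32208*, a short gene of the family, had 22 counts in each *mdf-1* library and 7, 13 and 12 in WT (log2 1.28, adjusted p = 0.00827).

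The chloroplast HSP70s differed little between genotypes. *HSP70-6* stood at 152, 160 and 146 FPKM in *mdf-1* and 130, 128 and 131 FPKM in WT, with no overlap and a fold change of 1.18 (log2 0.24 ± 0.0633 SE, adjusted p = 0.00943). With total counts its log2 fold change was 0.09 (adjusted p = 0.177). *HSP70-7* was 1.17-fold higher (adjusted p = 0.0426), a call lost when any library other than *mdf-1* replicate 3 was left out and under 3 other settings, with adjusted p up to 0.41. The ER chaperone *BIP* had 162, 123 and 117 FPKM in *mdf-1* and 147, 146 and 132 FPKM in WT. *mdf-1* replicate 1 was above and the other *mdf-1* replicates below every WT library, and the log2 fold change of -0.07 was not called (adjusted p = 0.625) and was 0.02 without *mdf-1* replicate 3, while without *mdf-1* replicate 1 it was -0.23 and called.

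The HSP70 genes that fell were *AT4G16660* and *AT1G79920*, which RefSeq lists as *HSP70-15*, an HSP110-like protein of the kind that exchanges nucleotides on HSP70. *AT4G16660* stood at 43.8, 33.7 and 32.0 FPKM in *mdf-1* and 49.9, 52.2 and 49.1 FPKM in WT, and *AT1G79920* at 42.0, 37.1 and 39.7 FPKM against 46.7, 49.4 and 49.3 FPKM. Neither overlapped between genotypes, and the levels were 1.38-fold and 1.22-fold lower (log2 -0.46 ± 0.115 and -0.29 ± 0.0592 SE, adjusted p = 0.00835 and 0.00283). The neighbour of *AT1G79920*, *HSP70-14*, lies 623 bases away and stood at 47.5 to 51.9 FPKM in *mdf-1* and 47.4 to 48.9 FPKM in WT (log2 fold change 0.08, adjusted p = 0.268). Near-identical coding regions make the split of reads between *HSP70-14* and *AT1G79920*, and among the cytosolic HSP70s, uncertain.

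All 4 HSP90 members were called, 3 higher (75%) and 1 lower (25%), against 33.5% and 33.9% of all genes. The median log2 fold change of the 4 was 0.38. HSP90 relatives outside the description rule are given below, and some of them were not called. *HSP90-1*, the heat-inducible cytosolic HSP90 (AT5G52640, chromosome 5 from 21352557 to 21355147, plus strand, 3 introns), stood at 22.6, 16.2 and 13.5 FPKM in *mdf-1* and 6.60, 7.45 and 9.22 FPKM in WT. The lowest *mdf-1* library was above the highest WT library, and both groups were spread. It was 2.25-fold higher (log2 1.17 ± 0.221 SE, adjusted p = 0.00408). The constitutive cytosolic genes *HSP90-3* and *HSP81-2* (also known as *HSP90-2*) were far more abundant and changed less. *HSP90-3* stood at 157, 134 and 127 FPKM against 98.2, 107 and 98.4 FPKM (1.38-fold, log2 0.46 ± 0.0885 SE, adjusted p = 0.00186). *HSP81-2* stood at 153, 137 and 134 FPKM against 113, 121 and 111 FPKM (1.23-fold, log2 0.30 ± 0.0735 SE, adjusted p = 0.00648). Neither overlapped between genotypes, and the call of *HSP81-2* was lost with total counts (log2 0.16, adjusted p = 0.0793). These genes lie 2220 bases apart on chromosome 5 and encode nearly identical proteins, so reads that both could give make each single value uncertain. The mitochondrial *HSP90-6* stood at 22.0, 21.1 and 20.9 FPKM in *mdf-1* and 24.97, 26.3 and 24.7 FPKM in WT, all below, and was 1.18-fold lower (log2 -0.24 ± 0.051 SE, adjusted p = 0.00323).

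**Figure D3:**
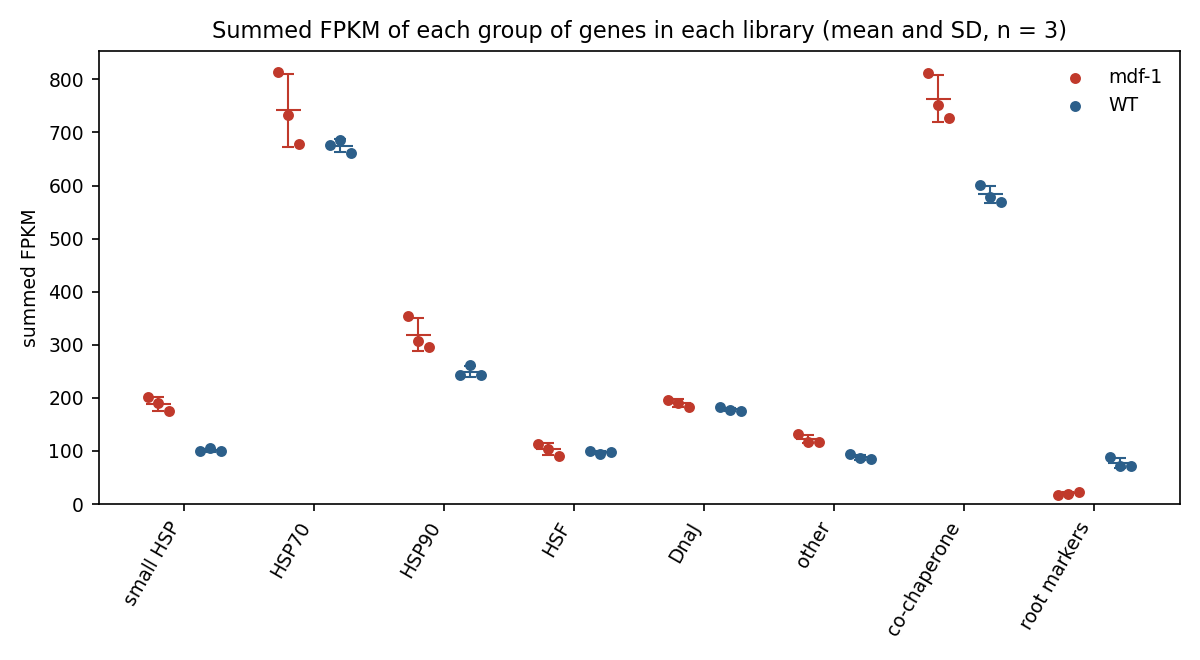
Summed FPKM of each group of genes in each library, with horizontal marks and error bars for the mean and SD of 3 libraries. Small HSPs sum to 189 ± 13.5 in *mdf-1* and 102 ± 2.93 in WT, HSP70 overlaps between genotypes at 742 ± 68.5 and 675 ± 12.2, and root markers sum to 19.9 ± 2.24 against 77.4 ± 9.21.

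Of the 17 HSFs, 14 were tested, and 4 were higher (28.6%), 3 lower (21.4%) and 7 not called. Both shares lay below those of all genes, which were 33.5% and 33.9%. The median log2 fold change of the HSFs was -0.03, or 0.02 with DESeq2. *HSFA2* (AT2G26150, chromosome 2 from 11135624 to 11137792, plus strand, 4 introns), itself a target of the A1 factors and strongly heat-induced, stood at 1.93, 1.65 and 1.49 FPKM in *mdf-1* and 0.30, 0.51 and 0.40 FPKM in WT. The counts were 155, 131 and 123 against 28, 48 and 40, far apart between genotypes. The fold change was 4.17 (log2 2.06 ± 0.228 SE, adjusted p = 9.82e-05). *HSFA8* stood at 2.51, 1.99 and 1.88 FPKM against 0.96, 0.82 and 0.81 FPKM, again without overlap, and was 2.47-fold higher (log2 1.31 ± 0.173 SE, adjusted p = 2.58e-04).

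The A1 factors, the constitutive activators of the response, did not move as a group. *HSFA1B* stood at 8.13, 7.95 and 7.87 FPKM in *mdf-1* and 5.11, 4.78 and 5.84 FPKM in WT and was 1.53-fold higher (log2 0.61 ± 0.0867 SE, adjusted p = 3.74e-04). *HSFA1D* stood at 5.81, 4.90 and 5.57 FPKM against 6.96, 6.81 and 6.50 FPKM and was 1.24-fold lower (log2 -0.31 ± 0.0817 SE, adjusted p = 0.00935). In both genes the genotypes did not overlap. *HSFA1A* had 3.61, 3.996 and 3.93 FPKM against 4.33, 4.21 and 4.69 FPKM and *HSFA1E* had 1.96, 2.12 and 2.43 FPKM against 2.46, 2.73 and 2.22 FPKM. *HSFA1A* lay below WT in every library and *HSFA1E* overlapped, and neither was called (adjusted p = 0.115 and 0.261), though *HSFA1A* was with total counts (log2 -0.34, adjusted p = 0.0172).

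*HSFC1* (AT3G24520, chromosome 3 from 8941066 to 8942874, plus strand, 1 intron), the only class C factor, had the most negative fold change of the tested HSFs. It stood at 3.47, 3.21 and 4.10 FPKM in *mdf-1* and 8.75, 8.14 and 8.93 FPKM in WT, with no overlap, and was 2.39-fold lower (log2 -1.26 ± 0.102 SE, adjusted p = 2.22e-05). *HSFA7A*, a heat-inducible factor with a pair of 3-unit elements before its start codon, stood at 5.46, 5.56 and 3.47 FPKM against 8.46, 6.21 and 6.49 FPKM. Its log2 fold change of -0.54 ± 0.205 SE (adjusted p = 0.0468) lost the call when any replicate but *mdf-1* replicate 2 was left out, at log2 -0.35 without *mdf-1* replicate 3 and an adjusted p of 0.155 without WT replicate 1.

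Among class B factors, *HSFB2B* was 1.22-fold higher (adjusted p = 0.00624), a call lost with total counts (adjusted p = 0.113). *HSFB1* was the most abundant HSF and stood at 55.3, 48.9 and 35.8 FPKM in *mdf-1* and 40.3, 36.4 and 39.3 FPKM in WT. *mdf-1* replicate 3 was below every WT library, and the log2 fold change of 0.28 ± 0.155 SE was not called (adjusted p = 0.155), while without that replicate it was 0.43 (adjusted p = 5.22e-04). *HSFB4*, known as SCHIZORIZA for its role in root cell identity, overlapped at 6.04 to 7.72 FPKM and 6.06 to 7.55 FPKM (log2 fold change 0.02, adjusted p = 0.872). *HSFA6B*, *HSFA7B* and the seed factor *HSFA9* were too low to test, with at most 11 counts in a library.

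Of 23 DnaJ genes tested, 7 were higher (30.4%), 7 lower (30.4%) and 9 not called, near the 33.5% and 33.9% of all genes. The median log2 fold change of the family was 0.12, or -0.03 with total counts. *AT5G27240* stood at 1.33, 1.69 and 1.61 FPKM in *mdf-1* and 4.86, 5.04 and 4.95 FPKM in WT, far apart, and was 3.2-fold lower (log2 -1.68 ± 0.098 SE, adjusted p = 5.7e-06). *AT1G59725* was also lower, with 22, 6 and 7 counts in *mdf-1* and 34, 38 and 46 in WT (log2 -1.50 ± 0.455 SE, adjusted p = 0.0182). Its log2 fold change was -2.33 without *mdf-1* replicate 1, and its call was lost without *mdf-1* replicate 2 or WT replicate 3 (adjusted p = 0.062 and 0.0585). On the other side, *AT5G06410* stood at 15.5, 12.6 and 11.3 FPKM against 8.56, 7.62 and 7.84 FPKM (1.65-fold, log2 0.72 ± 0.122 SE, adjusted p = 9.9e-04). *AT5G25530* had 34, 30 and 20 counts against 13, 8 and 13 (2.92-fold, log2 1.54 ± 0.352 SE, adjusted p = 0.00467). *AT4G28480*, the most abundant member of the family, was 1.33-fold higher at 31.8, 30.7 and 29.3 FPKM against 24.0, 23.0 and 22.1 FPKM (log2 0.42 ± 0.0575 SE, adjusted p = 3.3e-04). None of these 5 genes, all of them called, overlapped between genotypes. Of all genes, 36.3% lay above and 37% below WT without overlap.

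Of the 6 remaining members, 3 were tested. *HSBP*, which encodes a small protein that binds HSFs and restrains them, stood at 102, 90.5 and 89.4 FPKM in *mdf-1* and 65.1, 59.3 and 57.5 FPKM in WT, with no overlap (log2 0.64 ± 0.0711 SE, adjusted p = 1.05e-04). *AT5G09580*, which lies 659 bases from *HSP70-10*, was 1.4-fold higher (adjusted p = 0.00947). *AT3G22530* was not called (adjusted p = 0.866). *AT3G30520* and *AT3G42870* had no count in any library.

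Across the 86 members, 75 were tested, of which 34 were higher, 15 lower and 26 not called, and 11 did not pass the filter. The median log2 fold change of the 75 was 0.27. These are 45.3% higher and 20% lower, against 33.5% and 33.9% of all genes. With total counts, which shift all genes alike, 27 were higher and 22 lower, or 36% and 29.3% against 24.8% and 41.7% of all genes. In 44 of the 75, *mdf-1* replicate 1 was the highest *mdf-1* library, and in 40 replicate 3 was the lowest. For HSP90 this held for 4 of 4 in each case. The order was not counted over all genes, so it is not shown to be particular to the members. The part of this difference between the *mdf-1* replicates in the results was not tested. Without *mdf-1* replicate 1, 33 members were higher and 16 lower, and without replicate 3, 41 and 13.

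Other genes of the heat response were described from 2 lists of known genes. Of 24 co-chaperones and heat response genes, with *HSBP* among them, 23 were tested. Of these, 14 were higher (60.9%) and 1 lower (4.35%), against 33.5% and 33.9% of all genes. The median log2 fold change of the 23 was 0.40, against 0.01 over all genes. *DREB2C*, an activator of *HSFA3*, rose 6.4-fold (adjusted p = 2.1e-04), *SGT1A*, an HSP90 co-chaperone, rose 2.34-fold (adjusted p = 4.18e-05), and *MBF1C*, a heat-inducible coactivator, rose 1.71-fold (adjusted p = 0.00201). *GOLS1*, a galactinol synthase gene that HSFs activate, fell 2.78-fold (adjusted p = 1.01e-04). *HSP101*, the disaggregase of heat tolerance, stood at 4.78, 4.55 and 3.88 FPKM in *mdf-1* and 4.33, 3.68 and 4.02 FPKM in WT and was not called (adjusted p = 0.246), and *DREB2A* was not called (adjusted p = 0.822). Of 14 ER folding genes, with *BIP* among them, 4 were higher (28.6%) and 1 lower (7.14%), both below the shares of all genes, with a median of 0.09. Among them *BZIP60*, a regulator of the ER stress response, was 1.93-fold higher (adjusted p = 4.14e-04).

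A further 15 relatives that the description rule left out were picked by locus after the data were seen. Of these, *BIP1*, *BIP3* and *HSP90-7* are also in the list of ER folding genes above, so the lists are not separate. Of 14 tested, 9 were higher (64.3%) and none lower, against 33.5% and 33.9% of all genes. *HSP70-1*, the most abundant cytosolic HSP70, stood at 978, 974 and 978 FPKM in *mdf-1* and 660, 686 and 641 FPKM in WT (1.48-fold, adjusted p = 2.49e-04), and *HSP70-2* and *HSP70-4* rose 2.95-fold and 2.01-fold (adjusted p = 1.25e-05 and 0.00327). *BIP1*, nearly identical to *BIP*, was 1.6-fold higher (adjusted p = 8.89e-04), so reads shared between these genes make their separate values uncertain. Of the HSP90 relatives, *HSP90-4* was 1.2-fold higher (adjusted p = 0.00237), and *HSP90-5* and *HSP90-7* were not called (adjusted p = 0.756 and 0.379). *HSFA4A* rose 1.75-fold (adjusted p = 1.11e-04) and *HSFA3* was not called (adjusted p = 0.321). The chloroplast *HSP21* had 0 to 8 counts in *mdf-1* and 0 to 2 in WT and could not be tested.

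The 3-unit elements were found in several families and among members called higher, called lower and not called. Within 500 bases before the start codon, 4 of 20 small HSPs, 4 of 13 HSP70s, 1 of 4 HSP90s, 4 of 17 HSFs and 1 of 26 DnaJ genes held such an element. By call, 9 of the 34 higher members, 2 of the 15 lower ones, 1 of the 26 not called and 2 of the 11 not tested held it. In the 300 bases before the gene start, the window searched first, these numbers were 3, 1, 1 and 1 (8.82%, 6.67%, 3.85% and 9.09%). Of the small HSPs, 2 of 13 higher, 0 of 2 lower and 1 of 4 not called held it in the 500 bases. *HSP17.6* and *HSP17.8*, which rose strongly, each held a 2-unit but no 3-unit element in the 500 bases before the start codon. The lower genes with a 3-unit element were *AT1G79920* and *HSFA7A*, and the call of *HSFA7A* was lost in 5 of 14 alternatives. Of the higher genes with one, *HSP70-7* lost its call in 8 of 14, and *HSP70-6* and *HSFB2B* lost theirs with total counts. The other higher genes with one kept their call in each alternative. Whether the elements bear on the changes was not tested. For 2-unit elements the shares were 23.3% of members and 19.3% of all protein-coding genes in the 300 bases before the gene start, close to each other, and 58.1% and 33.9% in the 500 bases before the start codon.

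**Figure D4:**
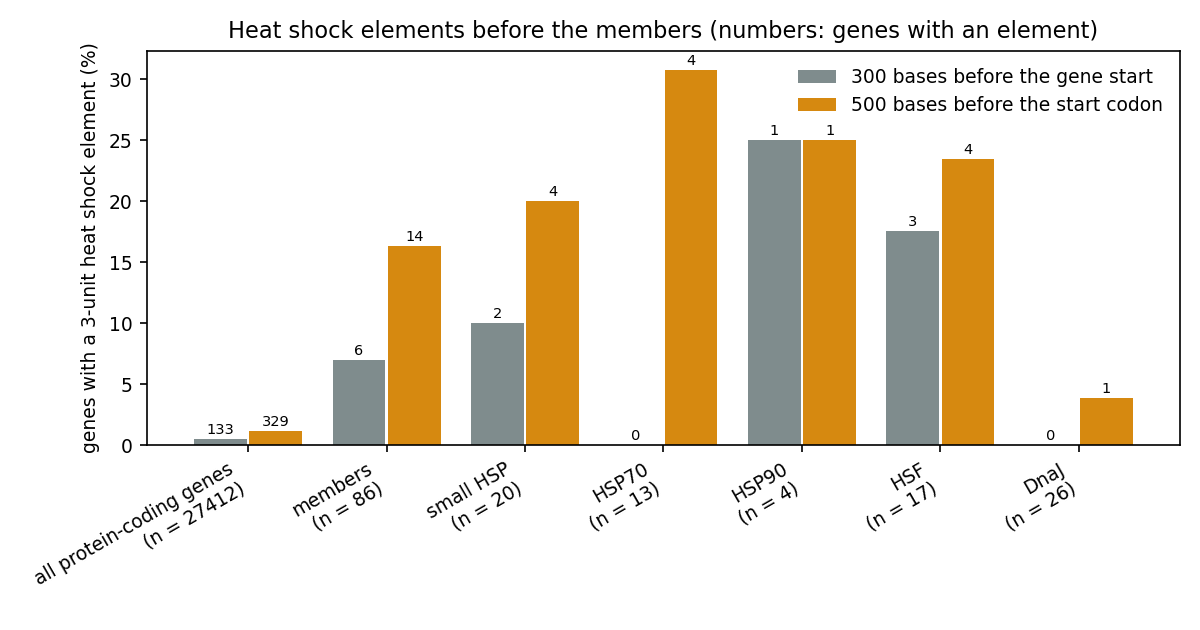
Share of genes (percent) with a 3-unit heat shock element in the 300 bases before the annotated gene start (grey) and in the 500 bases before the start codon (orange), with the number of genes above each bar. The shares are 0.485% and 1.2% of all protein-coding genes and 6.98% and 16.3% of the 86 members, and no HSP70 or DnaJ gene holds an element before the gene start.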

How the data were processed

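RNA-seq was done on 3 *mdf-1* and 3 WT libraries of complete 12-day-old seedlings, prepared with a NEBNext Ultra RNA kit. Per the labels, the authors used fastp, HISAT2 and featureCounts with TAIR10 (versions, and how featureCounts treated reads that fit more than 1 gene, are not given in the sources used here). They deposited counts per gene without normalization, and FPKM values, each of which equals depth- and length-scaled counts times a factor per library. The factor was 1.03 to 1.06 in the *mdf-1* libraries and 0.942 to 0.958 in the WT libraries. FPKM therefore sets *mdf-1* higher against WT than scaling by depth and length alone. The authors' 6 normalized columns, fold changes and p-values were not used.

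Library totals were 44738352 to 50088386 counts, so the floor of 3 counts was 5.99e-06% to 6.71e-06% of a library, for counting error only. Counts were fitted over all genes passing filterByExpr with edgeR 4.0.16 (TMM, robust glmQLFit, glmQLFTest, genotype as the only term) in R 4.3.3, and p-values were Benjamini-Hochberg adjusted over the 22397 genes tested. A gene was called at an adjusted p below 0.05. Standard errors are the log2 fold change divided by the square root of F. On simulated data, the fit recovered all 200 changed genes among 22235, with 8 false calls. The simulation changed few genes, all well expressed and by large folds, with the same spread for every gene. In the data 67.4% of genes were called, many with smaller changes or few counts, so these figures do not carry over to them. Levels are compared between genes as FPKM, and fold changes come from counts. Alternatives used DESeq2 1.42.0, limma 3.58.1 as edgeR's base, other scalings, filters and left-out libraries. A 3 against 3 permutation cannot give p below 0.1. FPKM sums carry no test.

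Families were set from the descriptions, with *HSBP* among the others because it binds factors. Full values are given for called members with the 3 largest rises and falls per family (2 for DnaJ) and a mean of at least 20 normalized counts, the most abundant member of each family, and the HSFA1 genes, *HSFA2*, *HSFB1* and *HSP90-1*. Other members were named after their values were seen. The members and lists were chosen with earlier results of these data known. Sequences and introns came from TAIR10.1 (RefSeq), where all 86 members have the deposited start and end. Motifs were searched and figures drawn with Python 3.11.15, pandas 2.3.3 and matplotlib 3.10.9.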

Additional observations from a re-analysis of the deposited data

How the results depend on the processing

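No called member changed direction under the alternatives run. Of the 49 called members, 44 could be tested in all 14 alternatives and 33 of these kept their call in each, while 4 further ones kept it in the 13 where they could be tested, *HSP17.6* among them. Medians near 0 changed sign, as those of HSP70 and DnaJ did with total counts, and that of the HSFs was 0.02 with DESeq2, 0.03 with no filter and -0.06 to 0.08 with a library left out. Scaling by total counts moved the medians of all members to 0.12, of HSP70 to -0.048, of HSP90 to 0.24, of HSFs to -0.17 and of DnaJ to -0.028, left 3 HSP70 genes higher, and made 5 HSFs and 11 DnaJ genes lower. With at least 10 counts in every library, 3 HSP70 genes were higher and 1 small HSP lower, and at an adjusted p below 0.01, 1 small HSP was lower. The DnaJ median was 0.20 with DESeq2 and 0.20 with no filter. Leaving out each library in turn gave 1 to 2 small HSPs lower (1 without WT replicate 1 or WT replicate 3) and a small HSP median of 0.87 to 1.11 (highest without *mdf-1* replicate 3). Adding the 15 relatives, chosen after the data were seen, gave 9 HSP70 genes and 7 HSFs higher. The share of members with a heat shock element was 23.3% with 2 units in the 300 bases before the gene start (19.3% of all protein-coding genes) and 16.3% with 3 units in the 500 bases before the start codon. Apart from fewer genes tested or samples fitted, the causes were not tested.

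Same-numbered libraries did not deviate together (r of 0.044, -0.003 and 0.08), so the replicate numbers were not taken as pairs. With the replicate block, 36 members were higher and 15 lower, no call was lost, and *HSP17.7* and *HSP15.4* were added. Reads shared by near-identical copies limit single values of HSP70 and HSP90 genes, and depth limits members with few counts.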
